A study of Mus musculus with 6 samples.

Results

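Expression of 10 genes of the extracellular proteolysis system was examined in Raw264.7 macrophages after knockdown of *Etv5*. The set was chosen by gene symbol and held 5 matrix metalloproteinases (*Mmp8*, *Mmp9*, *Mmp12*, *Mmp13*, *Mmp14*), 3 tissue inhibitors of metalloproteinases (*Timp1*, *Timp2*, *Timp3*) and 2 membrane-bound sheddases (*Adam8*, *Adam17*), that is 10 of 24786 gene symbols. Raw264.7 is a mouse macrophage line that came from a tumor induced by Abelson murine leukemia virus, and its samples carry the strain label C57BL/6 and an age label of postnatal day 21. One group (sh-NC, 3 libraries) was infected with lentivirus for a control shRNA and the other (sh-*Etv5*, 3 libraries) with lentivirus for an shRNA against *Etv5*, in both cases with Lipofectamine 3000. The labels give 24 or 48 h from infection to measurement, the study's text speaks of stably transfected cells, and which *Etv5* shRNA was used is not given in the sources used here. Polyadenylated RNA was sequenced, and the values are RPKM, read numbers scaled to gene length and to all mapped reads. Both groups are the same cell line, and the sources do not say whether replicate libraries stem from different cultures, so p-values measure the spread between these libraries, which may be technical. No read counts were used, so the depth of each library is unknown and no counting interval is given.

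Matrix metalloproteinases are zinc-dependent enzymes that are made as inactive proenzymes and, once activated, cut collagens, elastin, gelatin and other proteins outside the cell. Tissue inhibitors of metalloproteinases bind the active site of these enzymes and block them. Proteins of the ADAM family sit in the membrane and release the outer parts of other membrane proteins, among them TNF, which ADAM17 sheds from the macrophage surface. Macrophages are known as a source of these proteases where tissue is remodeled, and ETV5 belongs to the PEA3 group of ETS transcription factors, which is named after a DNA motif that also occurs in promoters of protease genes.

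The *Etv5* transcript itself was 9.49 ± 0.37 RPKM in sh-NC and 5.13 ± 0.20 RPKM in sh-*Etv5* libraries (mean ± SD, n = 3), and fell by 46.0%. Pearson's r of log2(RPKM + 1) was at least 0.998 within a group and at most 0.975 between the groups, and no library stood apart from its group. The difference between the groups reached most of the genes tested. Of 10738 genes with at least 1 RPKM in at least 3 of the 6 libraries, 74.3% passed the test (limma on log2(RPKM + 1), Benjamini-Hochberg adjusted p under 0.05), 33.3% as higher and 41.0% as lower in sh-*Etv5*. Counts among the protease genes are given against these shares. Of 9 macrophage markers, 3 were higher (*Adgre1*, *Itgam*, *Spi1*), 3 were lower (*Csf1r*, *Cd68*, *Lyz2*), 2 did not pass the test and 1 was under the filter. Their summed level was 3835 to 3940 RPKM in sh-NC and 2846 to 2923 RPKM in sh-*Etv5* libraries. Most of this sum was *Lyz2* (2834 ± 40.3 to 2041 ± 54.2 RPKM). *Adgre1* (2.60 ± 0.12 to 11.3 ± 0.76 RPKM) and *Itgam* (33.8 ± 0.75 to 127 ± 7.21 RPKM) rose, so the sum does not stand for every marker. These are bulk samples, in which fewer cells of a type and less RNA per cell cannot be told apart.

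Only *Adam8*, *Adam17* and *Mmp12* of the 10 genes reached 1 RPKM in 3 libraries, and all 3 passed the test. *Adam8* and *Mmp12* were higher in sh-*Etv5* and *Adam17* was lower, that is 2 of 3 higher and 1 of 3 lower, where 74.3% of all genes tested passed. *Mmp12* passed the filter only through the sh-*Etv5* libraries, in which it was high. The other 7 genes lay under the filter, and *Timp3* was listed at 0 in every library. Without any filter 17831 genes above 0 in at least 1 library were tested and 47.8% passed (23.3% higher and 24.5% lower), against 4 higher (*Adam8*, *Mmp12*, *Mmp13*, *Timp1*), 2 lower (*Adam17*, *Timp2*) and 3 that did not pass (*Mmp8*, *Mmp9*, *Mmp14*) among the 9 protease and inhibitor genes above 0. The 2 groups of libraries did not overlap for 6 of these 9 genes, where the same held for 55.3% of all genes above 0. In 5 of them sh-*Etv5* was above and in 1 below, against 27.3% and 28.0% of all genes. The 3 genes that passed the filter had no overlap, and 76.4% of all genes that passed it had none. Of the 6 genes under the filter but above 0, 3 passed the test without a filter and 3 did not overlap, against 16.4% and 23.4% of all genes under the filter.

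**Figure D1:**
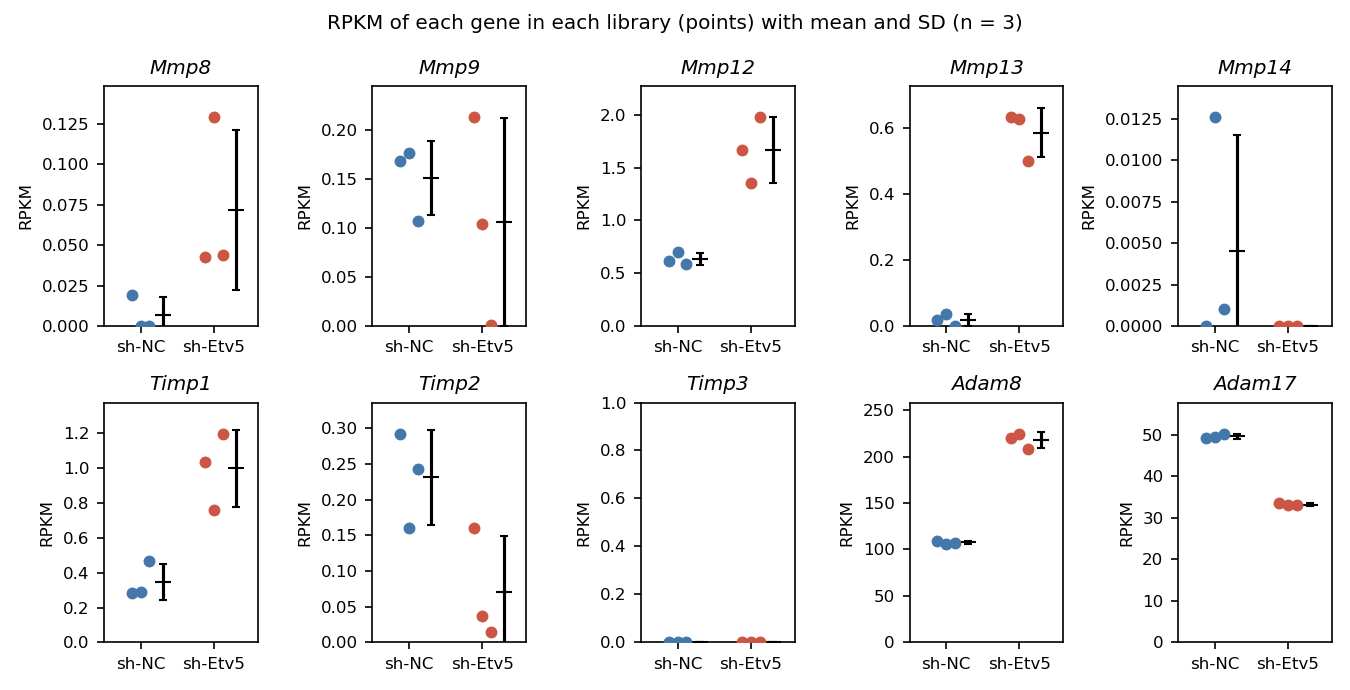
RPKM of each of the 10 genes in every library (points, 3 sh-NC and 3 sh-*Etv5*), with the group mean and SD as lines, which end at 0 where the SD is larger than the mean, and each panel on its own linear axis. *Adam8* lay between 106 and 109 RPKM in sh-NC and between 208 and 224 RPKM in sh-*Etv5*, while *Timp3* was listed at 0 throughout.

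The 250 bases before the annotated start were read for every gene of the set with a promoter sequence, whether or not its level changed. Both the AP-1 motif TGANTCA and the PEA3 motif AGGAAG are known from protease promoters. Promoter sequences from RefSeq (GRCm38.p6) were found for 9 of the 10 genes, in 10 windows because *Mmp12* has 2 starts. *Mmp9* had no entry. The windows of 4 genes that were higher and of *Adam17*, which was lower, are shown 5′ to 3′ with both motifs in capitals (PEA3 searched on both strands, its reverse complement being CTTCCT, and AP-1 reading alike on both).
Mmp13, chr9:7272264-7272513, plus strand: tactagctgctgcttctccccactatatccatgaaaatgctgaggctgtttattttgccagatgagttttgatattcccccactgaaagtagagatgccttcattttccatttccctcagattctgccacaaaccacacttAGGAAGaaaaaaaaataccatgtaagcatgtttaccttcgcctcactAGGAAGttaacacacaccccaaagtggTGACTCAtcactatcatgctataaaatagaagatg
Mmp12 first start, chr9:7344147-7344396, plus strand: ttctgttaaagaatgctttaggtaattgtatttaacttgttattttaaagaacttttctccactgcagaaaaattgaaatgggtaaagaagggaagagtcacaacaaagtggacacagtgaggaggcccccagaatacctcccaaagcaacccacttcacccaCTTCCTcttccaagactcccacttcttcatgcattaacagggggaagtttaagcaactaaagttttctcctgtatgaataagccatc
Mmp12 second start, chr9:7347124-7347373, plus strand: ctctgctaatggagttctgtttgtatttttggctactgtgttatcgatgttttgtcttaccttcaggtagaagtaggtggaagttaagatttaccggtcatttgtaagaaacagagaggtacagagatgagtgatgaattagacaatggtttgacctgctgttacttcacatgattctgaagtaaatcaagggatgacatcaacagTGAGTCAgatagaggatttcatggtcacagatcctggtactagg
Timp1, chrX:20869916-20870165, plus strand: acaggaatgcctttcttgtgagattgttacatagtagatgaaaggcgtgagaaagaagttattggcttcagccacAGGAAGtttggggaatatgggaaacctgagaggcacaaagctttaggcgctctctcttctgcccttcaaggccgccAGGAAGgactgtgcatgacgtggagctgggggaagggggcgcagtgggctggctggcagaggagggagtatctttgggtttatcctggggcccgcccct
Adam8, chr7:139992563-139992812, minus strand: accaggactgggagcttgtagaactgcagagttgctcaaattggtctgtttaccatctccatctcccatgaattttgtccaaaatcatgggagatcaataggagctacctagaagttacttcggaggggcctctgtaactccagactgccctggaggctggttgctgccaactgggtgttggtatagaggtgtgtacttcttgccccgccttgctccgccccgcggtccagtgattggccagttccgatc
Adam17, chr12:21373633-21373882, minus strand: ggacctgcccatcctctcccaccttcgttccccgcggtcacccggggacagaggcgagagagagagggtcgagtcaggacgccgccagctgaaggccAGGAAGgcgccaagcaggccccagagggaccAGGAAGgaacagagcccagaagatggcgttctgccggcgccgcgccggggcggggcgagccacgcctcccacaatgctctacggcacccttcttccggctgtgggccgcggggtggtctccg

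The AP-1 letters stood in 2 of the 10 windows, those of *Mmp13* and of the second *Mmp12* start, and in 6.75% of 32851 promoter windows of the same length. In *Mmp13* the match TGACTCA lay 35 to 29 bases before the start, and in *Mmp12* the match TGAGTCA lay 44 to 38 bases before the second start. The PEA3 letters stood in 7 windows, those of *Mmp8*, the first *Mmp12* start, *Mmp13*, *Mmp14*, *Timp1*, *Timp3* and *Adam17*, and in 29.5% of all windows. *Mmp13* was the one gene of the set with both motifs in the same window, which held for 1.98% of all windows. The window of *Adam8* held neither motif, nor did that of *Timp2*, which was lower without a filter and whose window is not shown. The PEA3 letters were found before genes that rose (*Mmp13*, *Mmp12*, *Timp1*) and before *Adam17*, which fell. A match is a run of letters and not evidence of binding.

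*Adam8*, a sheddase of myeloid cells that is made as a proenzyme and activates itself, was the most abundant of the 10 transcripts. Its called change was the largest of the set on the log2(RPKM + 1) scale, although the ratio of means and the log2 fold changes with smaller pseudocounts were larger for *Mmp12*. The sh-NC libraries held 109, 106 and 107 RPKM of it, and the sh-*Etv5* libraries 220.2, 224 and 208 RPKM. All 3 sh-*Etv5* libraries were above all 3 sh-NC libraries, with a wide gap between the groups. The mean went from 108 ± 1.54 to 218 ± 8.62 RPKM (SD, n = 3), a ratio of 2.02, which on the log2(RPKM + 1) scale is a log2 fold change of 1.01 (SE 0.04, limma with Benjamini-Hochberg adjusted p = 9.21e-10). In sh-NC its level was at rank 487 of all symbols, and the size of its change was at percentile 91.0 among the genes tested. The gene lies on the minus strand of chr7:139978932-139992562 (GRCm38), and 46 of its exon bases (0.99%) are shared with an annotated transcript on the other strand.

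*Adam17*, the TNF-converting enzyme, moved in the other direction. The 3 sh-NC libraries had 49.1, 49.5 and 50.2 RPKM and the 3 sh-*Etv5* libraries 33.5, 33.0 and 33.0 RPKM. Every sh-*Etv5* library was below every sh-NC library, and the spread within either group was small beside the gap between them. The mean of 49.6 ± 0.56 fell by 33.1% to 33.2 ± 0.31 RPKM (SD, n = 3), which is a log2 fold change of -0.57 (SE 0.03, limma adjusted p = 6.15e-08). *Adam17* (chr12:21323509-21373632, minus strand) shares 311 exon bases (4.35%) with *Iah1* on the other strand, whose level was 16.6 ± 0.81 RPKM in sh-NC and 12.5 ± 0.47 RPKM in sh-*Etv5*. Whether the counting used strand is not given in the sources used here, and the part of *Iah1* in the *Adam17* values was not tested.

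The balance between both sheddase transcripts differed between the groups. The ratio of *Adam8* to *Adam17* RPKM was 2.23, 2.15 and 2.13 in sh-NC and 6.57, 6.80 and 6.31 in sh-*Etv5* libraries. The 2 groups did not overlap. This follows from the opposite changes of *Adam8* and *Adam17* given above, neither of which overlapped, so the ratio was not tested and adds no support of its own. The sum of both transcripts was 157 ± 1.27 RPKM in sh-NC and 251 ± 8.74 RPKM in sh-*Etv5*, so the rise of *Adam8* exceeded the fall of *Adam17* in RPKM.

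*Mmp12*, the macrophage elastase, was the most abundant of the 5 matrix metalloproteinases in every library, although at a low level. It had 0.612, 0.699 and 0.586 RPKM in sh-NC and 1.66, 1.35 and 1.98 RPKM in sh-*Etv5*. The lowest sh-*Etv5* library was above the highest sh-NC library, and the spread was larger among the sh-*Etv5* libraries. Its mean, 0.632 ± 0.06 RPKM in sh-NC, rose to 1.66 ± 0.31 RPKM (SD, n = 3), a ratio of 2.63 and a log2 fold change of 0.70 (SE 0.10, limma adjusted p = 6.39e-05, and 0.00186 without a filter). The gene (chr9:7344381-7369499, plus strand) shares 157 exon bases (2.17%) with *Mmp1b* on the other strand, which was listed at 0 in every library.

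*Mmp13*, an interstitial collagenase whose gene lies upstream of *Mmp12* on the same chromosome, was near 0 in sh-NC with 0.0177, 0.0363 and 0 RPKM. In sh-*Etv5* it had 0.633, 0.627 and 0.501 RPKM. Every sh-*Etv5* library was above every sh-NC library, yet none reached 1 RPKM. Without a filter its log2 fold change was 0.64 (SE 0.04, limma adjusted p = 8.04e-05), and the value was the one most affected by the pseudocount, with 2.55 for a pseudocount of 0.1 RPKM and 4.66 for 0.01 RPKM.

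*Mmp8*, the neutrophil collagenase, had 0.0194, 0 and 0 RPKM in sh-NC and 0.0426, 0.129 and 0.0440 RPKM in sh-*Etv5*. Its groups did not overlap, but it did not pass the test (log2 fold change 0.09, limma adjusted p = 0.0829 without a filter). The adjusted p was 0.0269 without sh-*Etv5* replicate 2, the highest library. With any other library left out it was between 0.0731 and 0.186, so the gene did not pass. Of 9 neutrophil markers, *Ly6g*, *S100a9*, *Elane* and *Cxcr2* were listed at 0 in every library. 1 neutrophil marker, *S100a8*, passed the filter, through the sh-*Etv5* libraries alone, and was higher in sh-*Etv5* (15.5 to 19.7 RPKM against 0.123 to 0.491 RPKM), so the summed level of the 9 markers was 0.289 to 0.671 RPKM in sh-NC and 15.6 to 19.9 RPKM in sh-*Etv5*. Nearly all of the sum in sh-*Etv5* was *S100a8*. *Mpo*, *Camp*, *Ngp* and *Ltf* did not exceed 0.166 RPKM in any library. Without a filter 1 neutrophil marker was higher, 0 were lower and 4 did not pass, where 47.8% of all genes above 0 passed. The part of these markers in the *Mmp8* values was not tested.

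*Mmp9*, gelatinase B, had 0.168, 0.176 and 0.107 RPKM in sh-NC and 0.213, 0.104 and 0.000618 RPKM in sh-*Etv5*. The groups overlapped, with the highest and the lowest value both in sh-*Etv5*. No difference was detectable (log2 fold change -0.06 without a filter, 95% confidence interval -0.25 to 0.12, limma adjusted p = 0.544), and without sh-*Etv5* replicate 3 the estimate was 0.0087. *Mmp9* is also a gene of osteoclasts, which form from the same lineage. Of 7 osteoclast markers 1 was higher (*Acp5*, 0.464 ± 0.07 to 2.32 ± 0.26 RPKM, passing the filter through sh-*Etv5* alone) and 2 were lower (*Dcstamp*, 12.6 ± 0.57 to 4.0 ± 0.43 RPKM, and *Nfatc1*, 10.3 ± 0.44 to 4.74 ± 0.63 RPKM), with a sum of 22.6 to 24.6 RPKM in sh-NC and 10.2 to 11.7 RPKM in sh-*Etv5*. Without a filter 1 osteoclast marker was higher, 3 were lower and 3 did not pass, where 47.8% of all genes above 0 passed. *Ctsk* (0.137 ± 0.020 to 0.0334 ± 0.030 RPKM) was then lower too. The part of these markers in the *Mmp9* values was not tested.

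*Mmp14*, a membrane-anchored metalloproteinase that activates proMMP2, was hardly present. It had 0, 0.0126 and 0.00102 RPKM in sh-NC and was listed at 0 in the 3 sh-*Etv5* libraries. The difference did not pass the test (limma adjusted p = 0.519 without a filter).

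Summed over the 5 matrix metalloproteinases, the level was 0.818, 0.924 and 0.694 RPKM in sh-NC and 2.55, 2.21 and 2.52 RPKM in sh-*Etv5*. The groups did not overlap. *Mmp12* made up 78.3 ± 5.30% of this sum in sh-NC and 68.2 ± 9.01% in sh-*Etv5* (SD, n = 3), and the ranges of the share overlapped. Even after knockdown the 5 transcripts together were far below *Adam17* alone.

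Among the inhibitors, *Timp1* is the secreted inhibitor that is known to respond to inflammatory signals. It had 0.286, 0.289 and 0.466 RPKM in sh-NC and 1.04, 0.760 and 1.20 RPKM in sh-*Etv5*. The groups did not overlap, and 2 libraries, both sh-*Etv5*, reached 1 RPKM, so the gene stayed under the filter. Its mean was 0.347 ± 0.10 RPKM in sh-NC and 0.997 ± 0.22 RPKM in sh-*Etv5* (SD, n = 3). Without a filter it was higher, by 0.57 on the log2 scale (SE 0.10, limma adjusted p = 0.00561, and at most 0.0232 with any 1 library left out). *Timp1* (chrX:20870166-20874735, plus strand) lies inside *Syn1*, a neuronal synapsin gene on the other strand, with no shared exon bases. *Syn1* went from 0.160, 0.0909 and 0.0606 RPKM in sh-NC to 5.38, 5.48 and 5.01 RPKM in sh-*Etv5*, and its part in the *Timp1* values was not tested.

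*Timp2*, an inhibitor that also takes part in the activation of proMMP2 by MMP14, was at a low level. It had 0.292, 0.160 and 0.242 RPKM in sh-NC and 0.160, 0.0372 and 0.0149 RPKM in sh-*Etv5*. The highest sh-*Etv5* library, replicate 1, was level with the lowest sh-NC library, so the groups overlapped. Without a filter the log2 fold change was -0.20 (limma adjusted p = 0.0497), and the call rested on single libraries. The adjusted p was 0.132 without sh-NC replicate 1, 0.123 without sh-NC replicate 3, 0.131 without sh-*Etv5* replicate 2 and 0.128 without sh-*Etv5* replicate 3, while it was 0.0416 without sh-NC replicate 2 and 0.0141 without sh-*Etv5* replicate 1.

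*Timp3*, the inhibitor bound to the extracellular matrix and the one known to block ADAM17, was listed at 0 in all 6 libraries. It shares 1733 exon bases (21.3%) with *Syn3* on the other strand, which had 0.0255 ± 0.0081 RPKM in sh-NC and 0.0368 ± 0.016 RPKM in sh-*Etv5*. Summed over the 3 inhibitors, the level was 0.578, 0.449 and 0.708 RPKM in sh-NC and 1.20, 0.797 and 1.21 RPKM in sh-*Etv5*. The groups did not overlap, and most of the sum in sh-*Etv5* was *Timp1*. TIMPs and collagens are typical products of fibroblasts, and of 7 fibroblast markers none passed the filter. Their summed level was 0.0326 to 0.0642 RPKM in sh-NC and 0.838 to 1.11 RPKM in sh-*Etv5*. Most of the sum in sh-*Etv5* was *Lum* (0 in sh-NC, 0.625 to 0.931 RPKM in sh-*Etv5*). Without a filter 3 markers were higher (*Lum*, *Dcn*, *Col1a1*), 0 were lower and 3 did not pass, where 16.4% of all genes under the filter passed. *Dcn* had 0 RPKM in sh-NC and 0.0497 to 0.128 RPKM in sh-*Etv5*, and *Col1a2* was listed at 0 throughout. The part of these markers in the inhibitor values was not tested.

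**Figure D2:**
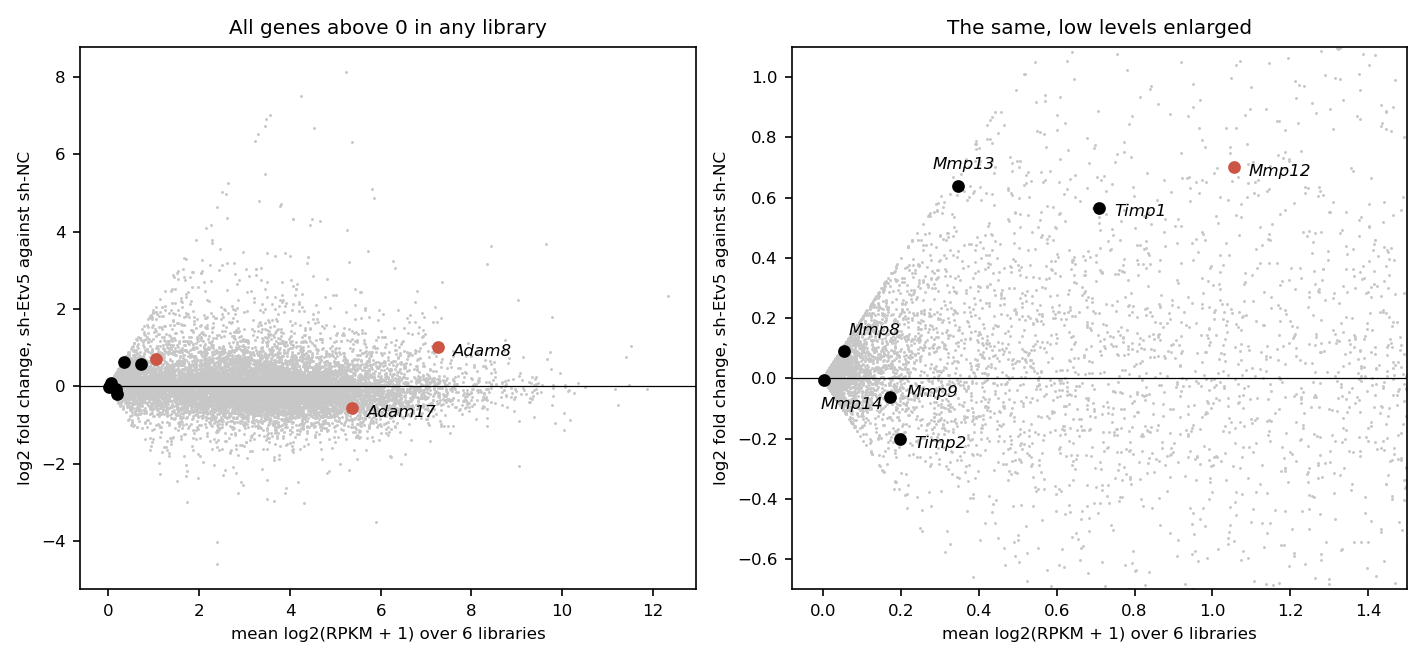
Log2 fold change of sh-*Etv5* against sh-NC on the log2(RPKM + 1) scale, with no filter, against the mean log2(RPKM + 1) of the 6 libraries, for all 17831 genes above 0 (grey), with low levels enlarged on the right. The protease and inhibitor genes that passed the filter are red and the others are black, and *Adam8* and *Adam17* sit apart from the rest at high levels.

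Ordered by their sh-NC level in RPKM, the genes ran *Adam8*, *Adam17*, *Mmp12*, *Timp1*, *Timp2*, *Mmp9*, *Mmp13*, *Mmp8*, *Mmp14* and *Timp3*. In this order the libraries of *Adam8*, *Adam17* and *Mmp12* did not reach those of the next gene. *Timp1* and *Timp2* overlapped (lowest 0.286 RPKM against highest 0.292 RPKM). *Timp2* and *Mmp9* overlapped too, *Mmp9* lay above *Mmp13*, and *Mmp13*, *Mmp8* and *Mmp14* overlapped. In sh-*Etv5* the order of the first 4 was kept and *Mmp13* moved to the fifth place, above *Mmp9* and *Timp2*.

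The genes of *Mmp13*, *Mmp12* and *Mmp8* belong to a run of 10 *Mmp* genes on chr9:7272514-7699585, which spans 427 kb. *Mmp13* and *Mmp12* stand side by side at one end. *Mmp8*, further along, was also above sh-NC in every sh-*Etv5* library, but near 0 and without passing the test. *Mmp1a*, *Mmp1b* and *Mmp20* were listed at 0 in every library, and *Mmp3*, *Mmp7*, *Mmp10* and *Mmp27* did not exceed 0.0804 RPKM in any library. Of the flanking genes *Dync2h1*, a dynein chain before *Mmp13*, did not pass the test (2.34 ± 0.15 and 2.64 ± 0.13 RPKM). On the other side *Tmem123*, a membrane protein gene, was lower (53.9 ± 1.93 to 44.3 ± 1.57 RPKM), *Birc2* did not pass (7.82 ± 0.75 and 7.43 ± 0.29 RPKM), *Birc3*, an inhibitor of apoptosis induced by NF-kB, was higher (9.32 ± 0.09 to 15.2 ± 0.69 RPKM), and *Yap1* was listed at 0.

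**Figure D3:**
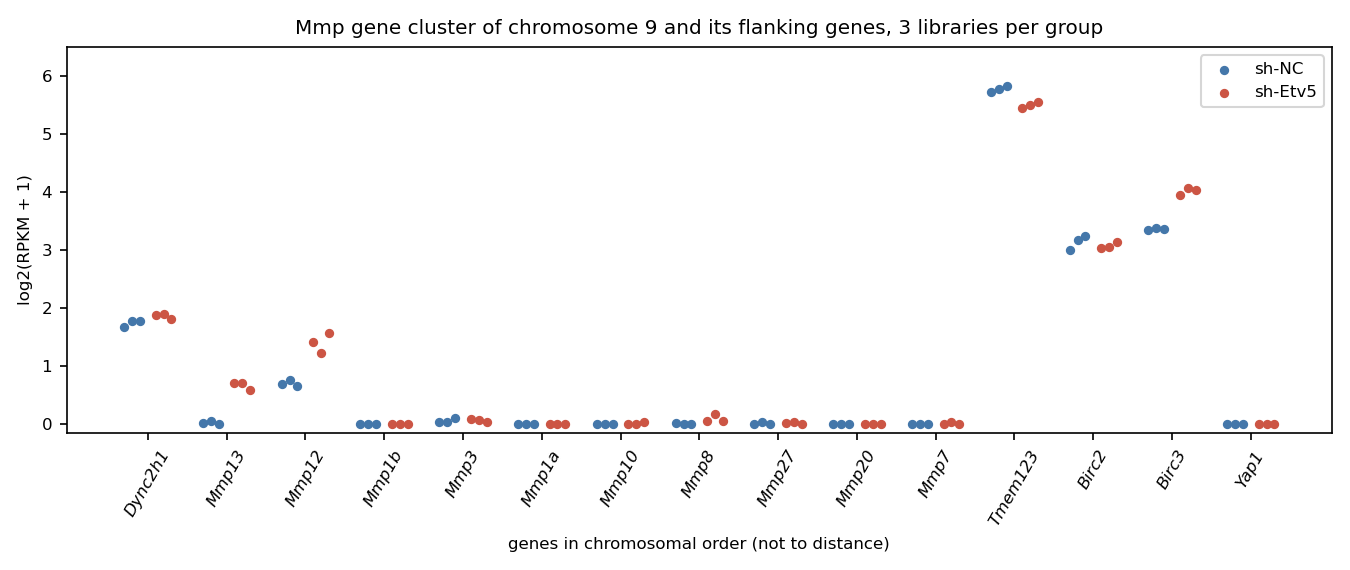
Log2(RPKM + 1) in each library (points, 3 sh-NC and 3 sh-*Etv5*) for the 10 *Mmp* genes of the chromosome 9 run and their flanking genes, in their order along the chromosome but not to distance. *Mmp12* and *Mmp13* rise above a run of genes at or near 0.

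The rest of the protease family was mostly under the filter as well. Of 18 other *Mmp* genes 5 were at 0 in every library and 2 passed the filter. *Mmp19*, a widely expressed metalloproteinase, was higher (0.779 ± 0.10 to 3.23 ± 0.15 RPKM, log2 fold change 1.25) and *Mmp24*, a membrane-type metalloproteinase, was lower (3.99 ± 0.12 to 2.33 ± 0.54 RPKM, log2 fold change -0.60). *Mmp19* passed the filter only through the sh-*Etv5* libraries. Both genes share exon bases with a gene on the other strand that moved the same way. *Mmp19* shares 789 bases (22.3%) with *Tmem198b* (1.24 ± 0.12 to 3.16 ± 0.22 RPKM), and *Mmp24* shares 637 bases (13.6%) with *BC029722* (34.7 ± 2.03 to 20.4 ± 1.80 RPKM). Reads of these pairs cannot be told apart unless strand was used. Over all 23 *Mmp* genes the sum was 5.99 ± 0.19 RPKM in sh-NC and 9.28 ± 0.78 RPKM in sh-*Etv5*, more than the 5 genes above alone.

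Of 23 other *Adam* genes 4 passed the filter, 3 higher and 1 lower, where 33.3% and 41.0% of all genes tested were so called. *Adam10*, the closest relative of *Adam17* in function and a sheddase of Notch receptors, was lower with it (47.5 ± 1.34 to 29.0 ± 1.32 RPKM, log2 fold change -0.69). *Adam15* (118 ± 5.09 to 175 ± 3.08 RPKM) and *Adam9* (29.0 ± 0.60 to 36.7 ± 1.25 RPKM), both active sheddases, were higher with *Adam8*, by 0.57 and 0.33 on the log2 scale. *Adam15* shares 1263 exon bases (20.6%) with an antisense transcript. *Adam3*, known from sperm, was higher at a low level (0.848 ± 0.18 to 2.88 ± 0.26 RPKM, log2 fold change 1.07), and passed the filter only through the sh-*Etv5* libraries. The ratio of *Adam17* to *Adam10* RPKM was 1.04 ± 0.02 in sh-NC and 1.14 ± 0.06 in sh-*Etv5*, and the groups did not overlap.

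Of 19 *Adamts* genes, secreted relatives that cut proteoglycans and procollagens, *Adamts10* alone passed the filter and was lower (6.69 ± 0.56 to 2.70 ± 0.05 RPKM, log2 fold change -1.05). Without a filter 5 *Adamts* genes were higher, 1 was lower and 10 did not pass. *Adamts6* (0.0295 ± 0.0039 to 0.809 ± 0.046 RPKM) and *Adamts1* (0.0132 ± 0.015 to 0.521 ± 0.12 RPKM) rose under the filter. Of the other *Mmp* genes above 0, 3 were then higher, 1 was lower and 9 did not pass. Of the other *Adam* genes 4 were higher, 2 were lower and 11 did not pass. Over all genes above 0, 23.3% were higher and 24.5% lower. Of 3 further inhibitor genes (*Timp4*, *Reck*, *A2m*) none reached the filter, and *Reck*, a membrane-anchored inhibitor, was the one above 0 (at most 0.0717 RPKM).

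Genes of proteins that activate, carry or clear these proteases were read as well. Of 15 such genes 10 passed the filter, 6 higher, 3 lower and 1 not passing the test, where 74.3% of all genes tested passed (33.3% higher and 41.0% lower). Their median log2 fold change was 0.25, against -0.05 over all genes tested. *Furin*, the convertase that cuts the prodomains of ADAM17 and of MMP14, was higher (11.5 ± 0.27 to 40.8 ± 1.86 RPKM, log2 fold change 1.74). Both iRhom genes, whose products bring ADAM17 to the cell surface, were higher, *Rhbdf2* at 22.4 ± 0.30 to 51.5 ± 2.47 RPKM and *Rhbdf1* at 0.720 ± 0.13 to 3.0 ± 0.24 RPKM, which passed the filter only through the sh-*Etv5* libraries. Their log2 fold changes of 1.17 and 1.22 were opposite in sign to that of *Adam17*. *Frmd8*, which stabilizes the iRhom complex, did not pass the test (22.1 ± 0.97 and 21.9 ± 0.78 RPKM).

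The tetraspanins that carry ADAM10 went both ways. *Tspan14* was lower (18.0 ± 0.42 to 10.8 ± 0.76 RPKM, log2 fold change -0.70) and so was *Tspan5* (-0.20), whereas *Tspan17* was higher (1.12 ± 0.28 to 2.37 ± 0.49 RPKM, log2 fold change 0.67). *Lrp1*, the endocytic receptor that clears secreted metalloproteinases and TIMPs, was lower (65.7 ± 1.99 to 45.9 ± 6.44 RPKM, log2 fold change -0.52).

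**Figure D4:**
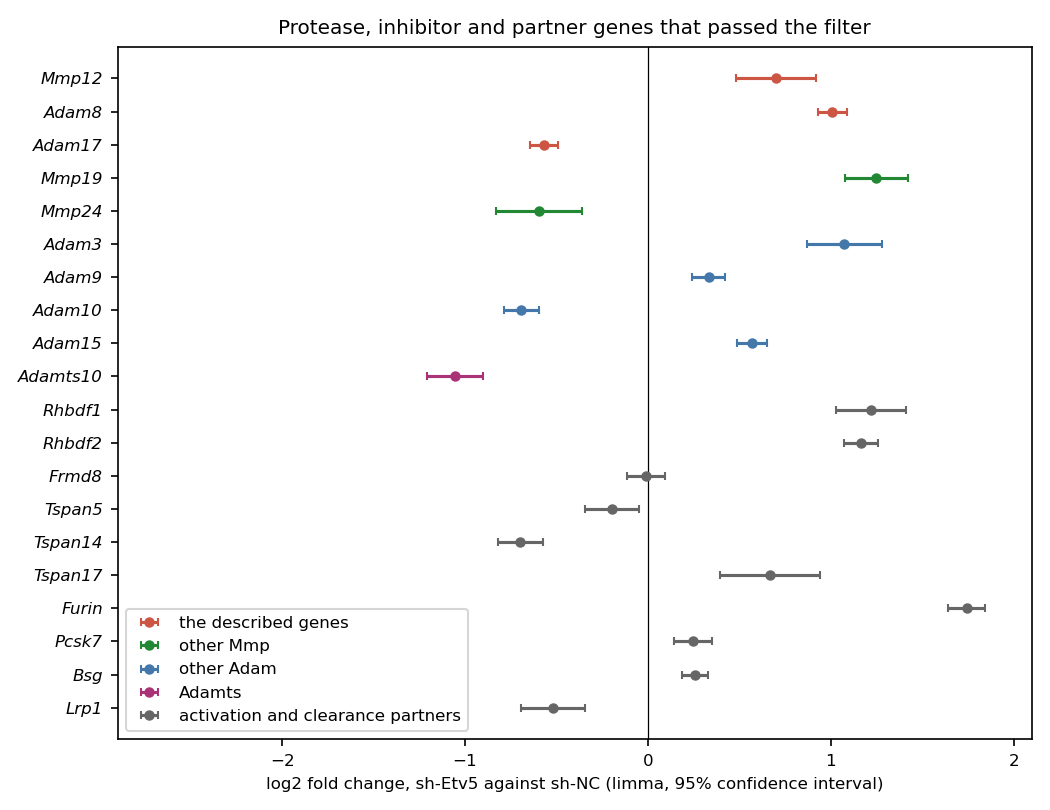
Log2 fold change with its 95% confidence interval (limma, log2(RPKM + 1)) for every gene of the protease, inhibitor and partner lists that passed the filter, colored by list. *Adam17*, *Adam10* and *Tspan14* lie left of 0, and *Adam8*, *Furin*, *Rhbdf1* and *Rhbdf2* lie near or right of 1.

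Known substrates of ADAM17 and ADAM10 were read beside them, as transcripts only. Of 23 substrate genes 11 passed the filter, 5 higher, 3 lower and 3 not passing the test, a share near the 74.3% of all genes tested that passed, with a median log2 fold change of 0.08. The transcript of *Tnf*, the substrate ADAM17 is named for, was higher while that of the enzyme was lower (63.0 ± 0.90 to 412 ± 6.77 RPKM, log2 fold change 2.69). The same held for *Tnfrsf1b*, a TNF receptor that is shed from the surface (6.99 ± 0.49 to 34.2 ± 1.44 RPKM, log2 fold change 2.14). *Notch1*, a receptor cut by ADAM10, was higher at a low level (0.324 ± 0.05 to 1.5 ± 0.20 RPKM, log2 fold change 0.91), and passed the filter only through the sh-*Etv5* libraries. *Trem2*, a lipid receptor of macrophages (169 ± 4.71 to 49.6 ± 2.40 RPKM), *Csf1r*, the receptor for macrophage growth factor (428 ± 4.56 to 244 ± 6.72 RPKM), and *Il6ra*, the interleukin-6 receptor (16.6 ± 0.44 to 10.2 ± 0.15 RPKM), were lower with *Adam17*. Shedding itself was not measured.

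The genes whose pattern over the 6 libraries was nearest to that of *Adam8*, by Euclidean distance of log2(RPKM + 1) from the sh-NC mean, were *Nfe2l1* (distance 0.05), *Etv4* (0.06) and *Fosl2* (0.07). *Etv4*, which like *Etv5* is a PEA3 group gene, was at 0.829 ± 0.01 RPKM in sh-NC and 2.69 ± 0.18 RPKM in sh-*Etv5*. It passed the filter only through the sh-*Etv5* libraries. The log2(RPKM + 1) scale understates the change of so low a gene, so its nearness to *Adam8* holds on this scale only. *Fosl2*, an AP-1 subunit gene, was at 4.71 ± 0.09 and 10.5 ± 0.71 RPKM. *Nfe2l1* was at 39.6 ± 0.44 and 82.1 ± 2.89 RPKM.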

How the data were processed

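RNA of 3 sh-NC and 3 sh-*Etv5* libraries of Raw264.7 cells was compared. The authors deposited 1 table of RPKM values by gene symbol, read from coverage tracks, and the labels give mm10 as the genome build. The aligner, counter, annotation and strand setting are not given in the sources used here. Because RPKM are not counts, log2(RPKM + 1) was tested in R 4.3.3 by limma 3.58.1 (two-sided, moderated by eBayes with a trend on intensity, no covariate), over genes with at least 1 RPKM in at least 3 of 6 libraries. Calls were made at a Benjamini-Hochberg adjusted p under 0.05 over all genes tested. Fold changes on this scale understate the change of low genes. Low RPKM values gave no whole reads, so depth and counting error are unknown.

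Genes named were the 10 genes, *Etv5*, all genes of the chromosome 9 run and its flanks, from each list the 3 largest called rises and falls and any called change of at least 1 on the log2 scale, and the 3 genes most like *Adam8*. Other genes were named after their values were seen, chiefly overlapping genes, markers and genes that did not pass. The set and the lists were chosen with earlier results of these data known. Alternatives changed the pseudocount, filter, scaling, variance model, replicate block and libraries. The limma step was tested on simulated data. Positions are from GENCODE vM21 (GRCm38).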

Additional observations from a re-analysis of the deposited data

How the results depend on the processing

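Of 7974 genes called, 991 also had an absolute log2 fold change above 1, and 7334 to 7570 were called with any 1 library left out. The counts of protease and inhibitor genes moved with the filter and with the size asked for. Of the 10 genes, 2 were called higher, against 4 with no filter, 1 at a mean of at least 5 RPKM, 1 with an absolute log2 fold change above 1 (*Adam8*), and 1 to 2 with 1 library left out. The value of 1 came without any sh-*Etv5* library, since *Mmp12* then cannot reach 1 RPKM in 3 libraries, and with no filter it stayed called (adjusted p at most 0.0101). 1 was called lower, against 2 with no filter and 0 of those with an absolute log2 fold change above 1 by limma, where *Adam17* at -0.57 cannot count. Of the other *Mmp*, *Adam*, *Adamts* and inhibitor genes 7 were called, against 17 with no filter, 3 at a mean of at least 5 RPKM, 3 with an absolute log2 fold change above 1, and 5 to 7 with 1 library left out. For comparison, at a mean of at least 5 RPKM 2564 of all 7795 genes tested were higher and 3528 lower. With an absolute log2 fold change above 1, 669 of all 10738 genes tested were higher and 322 lower. *Adam8* ranged from 0.95 to 1.04 and *Adam17* from -0.63 to -0.52 over 16 settings, and *Mmp12* from 0.57 to 1.37 over 15. Rescaling to the same sum moved the median log2 fold change of all genes from -0.05 to -0.10.

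Same-numbered libraries did not deviate together (r of 0.07, -0.07 and -0.04), and 2 of 6 libraries correlated best with their own number, so the numbers were not taken as pairs. With the replicate block 7900 genes were called, 2 of the 10 genes higher and 1 lower, and 7 of the other protease and inhibitor genes. Levels under 1 RPKM rest on an unknown number of reads, which limits what *Mmp8*, *Mmp9*, *Mmp14* and *Timp2* can show.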

Other observations

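Few genes of the extracellular matrix, the substrate of most of these proteases, reached the filter in these cells. One of them, *Spp1*, was among the most abundant transcripts, at rank 5 of all symbols in sh-NC. Of 27 matrix genes 3 were listed at 0 in every library and 2 passed the filter. Both were higher in sh-*Etv5*, where 74.3% of all genes tested passed the test and 33.3% were higher. Without a filter 6 of 24 were higher, 2 were lower (*Nid2* and *Tnc*) and 16 did not pass, against 23.3% higher and 24.5% lower of all genes. *Lamc1*, a laminin chain of basement membranes, went from 14.9 ± 0.41 to 44.2 ± 2.69 RPKM (log2 fold change 1.51, limma adjusted p = 4.37e-10), and *Spp1*, the osteopontin gene, from 2276 ± 13.1 to 11497 ± 299.8 RPKM (log2 fold change 2.34, limma adjusted p = 6.89e-13). *Eln*, which encodes the elastin that MMP12 cuts, and the fibrillar collagens that MMP13 and MMP8 cut were under the filter.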
